A study of Mus musculus with 2 samples.

Results

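The collagen genes outside the type IV chains were examined across the cells of the mouse dorsal root ganglion (DRG). The members were chosen by symbol, as every gene named Col, a number, a and a number, without the 6 type IV chains of the basement membrane network, which left 38 of the 32285 genes in the count matrices. They comprise 11 fibrillar chains, 9 fibril-associated chains with interrupted helices (FACITs), 9 chains of beaded filaments and related collagens, 3 network chains, 2 multiplexins and 4 transmembrane collagens. The study profiled single cells of the L4 and L5 DRGs, the ganglia that hold the sensory neuron cell bodies of the hind limb, to describe their cell types, among them satellite glial cells (SGCs), which wrap neuronal cell bodies. Both samples, replicate 1 and replicate 2, came from naive C57BL/6 female mice of 3 months. Their ganglia were digested with papain and collagenase, and live cells were sorted before libraries were made with 10x Chromium 3′ chemistry. Both samples carry the same genotype and no treatment, so there is no control group, and the comparisons run between cell types within them. The number of animals pooled in each replicate is not given in the sources used here. Values given as a pair are those of replicate 1 and replicate 2, in this order.

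Collagens are secreted or membrane-bound proteins of 3 polypeptide chains wound into a helix. Fibrillar collagens (types I, II, III, V, XI, XXIV and XXVII) assemble into the fibrils that bear load. FACITs sit on fibril surfaces, type VI collagen forms beaded filaments around cells, network collagens form lattices, and multiplexins lie at basement membranes. In a nerve and its ganglion, collagen fibrils fill the endoneurium among the axons, the perineurium that encloses each fascicle and the outer epineurium. Fibroblasts are known as the main source of these fibrils, while Schwann cells deposit a basal lamina and are also known to secrete collagens such as type V.

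Promoter sequences are shown for 4 members around which the levels below turn, the type I and type III chains that made up most fibroblast collagen RNA, Col15a1, which marked endoneurial fibroblasts, and Col28a1, which was high in glia and low in fibroblasts. Each runs 5′ to 3′ from 250 bases before to 50 bases after the annotated start of transcription on GRCm38.p6 (RefSeq). Capitals mark matches to a pair of promoter motifs searched on both strands, the CCAAT box (its reverse complement is written ATTGG) and the TATA box in the form TATAAA. No matches overlapped.
Col1a2, chr6:4505368-4505667, plus strand: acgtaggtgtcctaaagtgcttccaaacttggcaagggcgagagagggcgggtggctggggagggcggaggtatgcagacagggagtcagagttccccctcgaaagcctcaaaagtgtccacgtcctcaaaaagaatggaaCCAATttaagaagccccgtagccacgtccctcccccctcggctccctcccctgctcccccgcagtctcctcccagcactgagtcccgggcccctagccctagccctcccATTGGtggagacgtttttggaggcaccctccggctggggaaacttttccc
Col3a1, chr1:45311288-45311587, plus strand: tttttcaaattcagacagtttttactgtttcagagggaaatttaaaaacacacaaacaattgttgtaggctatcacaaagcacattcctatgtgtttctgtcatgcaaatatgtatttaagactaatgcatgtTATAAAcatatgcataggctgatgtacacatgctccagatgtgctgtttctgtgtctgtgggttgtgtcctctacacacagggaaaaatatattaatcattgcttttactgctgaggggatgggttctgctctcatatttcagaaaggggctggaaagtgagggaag
Col15a1, chr4:47207762-47208061, plus strand: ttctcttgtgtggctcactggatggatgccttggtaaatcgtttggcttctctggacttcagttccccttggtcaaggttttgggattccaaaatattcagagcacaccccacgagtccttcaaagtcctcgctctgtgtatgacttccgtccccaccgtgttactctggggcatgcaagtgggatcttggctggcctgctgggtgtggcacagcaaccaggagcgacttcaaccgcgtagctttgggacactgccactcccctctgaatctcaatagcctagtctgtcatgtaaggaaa
Col28a1, chr6:8192568-8192867, minus strand: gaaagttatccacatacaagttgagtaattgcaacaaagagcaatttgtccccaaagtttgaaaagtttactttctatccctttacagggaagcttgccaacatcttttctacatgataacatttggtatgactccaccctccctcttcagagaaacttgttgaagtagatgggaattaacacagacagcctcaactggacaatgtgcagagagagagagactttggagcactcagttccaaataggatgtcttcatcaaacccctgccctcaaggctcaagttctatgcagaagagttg
The Col1a2 window held 2 CCAAT matches and the Col3a1 window 1 TATAAA match, and these letters did not occur in the Col15a1 and Col28a1 windows. Over all 32851 promoter entries of the table, CCAAT occurred in 37.4% and TATAAA in 13.6%. Of the 33 entries of the 30 members that had one, 10 (30.3%) held CCAAT and 5 (15.2%) TATAAA. Col1a1, Col2a1, Col5a2, Col9a3, Col12a1, Col14a1, Col22a1 and Col26a1 had no entry.

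Cells were called from 119101743 and 128668771 UMIs (unique molecular identifiers, each standing for 1 captured RNA molecule), and 134 cell barcodes occurred in both samples (1.52% of the called cells of replicate 1 and 1.53% of replicate 2). After filters, 8377 and 8308 cells were retained. They were clustered with every collagen gene left out, and clusters were named from fixed markers, of which no collagen was one. Fibroblasts numbered 441 and 589, myelinating Schwann cells 1617 and 1649, non-myelinating Schwann cells 547 and 638, SGCs 4137 and 3896, mural cells 381 and 311, endothelial cells 186 and 230, macrophages 200 and 165 and neurons 310 and 125. A further 1101 cells stayed unnamed, and 297 of the 435 neurons held under 1000 UMIs. UMIs were summed per replicate and type, and levels are counts scaled to 1e6 UMIs (CPM) after TMM normalization. Since 3′ UMIs are not divided by length, levels were compared between cells and not between genes.

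Pdgfra, the PDGF receptor of fibroblasts, stood at 229 and 230.1 CPM in fibroblasts and at most at 4.70 CPM in any other of the 8 types. Dcn (decorin) stood at 20162 and 20707 CPM in fibroblasts and, among the other types, was highest in neurons at 486 and 760 CPM. Ncmap, a protein of non-compact myelin, stood at 1571 and 1563 CPM in myelinating Schwann cells, Scn7a, a sodium channel gene of non-myelinating Schwann cells, at 2043 and 2213 CPM in that type, and Fabp7, a fatty acid binding protein of SGCs, at 10687 and 11079.9 CPM in SGCs. The summed 12 fibroblast markers reached 37476 and 36333 CPM in fibroblasts, 2913 and 2829.6 in mural cells, 582 and 667 in myelinating and 1839 and 1833 in non-myelinating Schwann cells, and 1234 and 1241 in SGCs. The 10 markers of non-myelinating Schwann cells summed to more in fibroblasts (32947 and 37851 CPM) than in their own type (7929 and 8208 CPM), and the list includes Apod, a leading gene of the endoneurial-like fibroblasts described below. The estimated share of UMIs that came from RNA free in the droplets was 1.43 to 3.89% in fibroblasts, SGCs and both Schwann types, and 5.66% and 7.38% in neurons. Its part in each collagen level is given below where it bears on one.

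The collagens together made up 1.45% and 1.30% of all fibroblast UMIs. They made up 0.276% and 0.286% in non-myelinating Schwann cells, 0.191% and 0.195% in SGCs, 0.177% and 0.175% in myelinating Schwann cells and 0.179% and 0.202% in mural cells. In endothelial cells the share was 0.0530% and 0.0544%, in macrophages 0.0384% and 0.0596% and in neurons 0.0474% and 0.0610%. Fibroblasts were thus above every other type in both replicates, and the glia and mural cells above the remaining 3 types. What the collagen RNA consisted of also differed: Col1a1, Col1a2 and Col3a1 held 64.1% and 64.1% of the collagen UMIs of fibroblasts and 11.5% and 11.8% of those of SGCs. Col28a1 alone held 23.0% and 24.3% of the collagen UMIs of SGCs, 25.9% and 24.9% in myelinating and 16.0% and 16.1% in non-myelinating Schwann cells, and 0.0875% and 0.131% in fibroblasts.

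**Figure D1:**
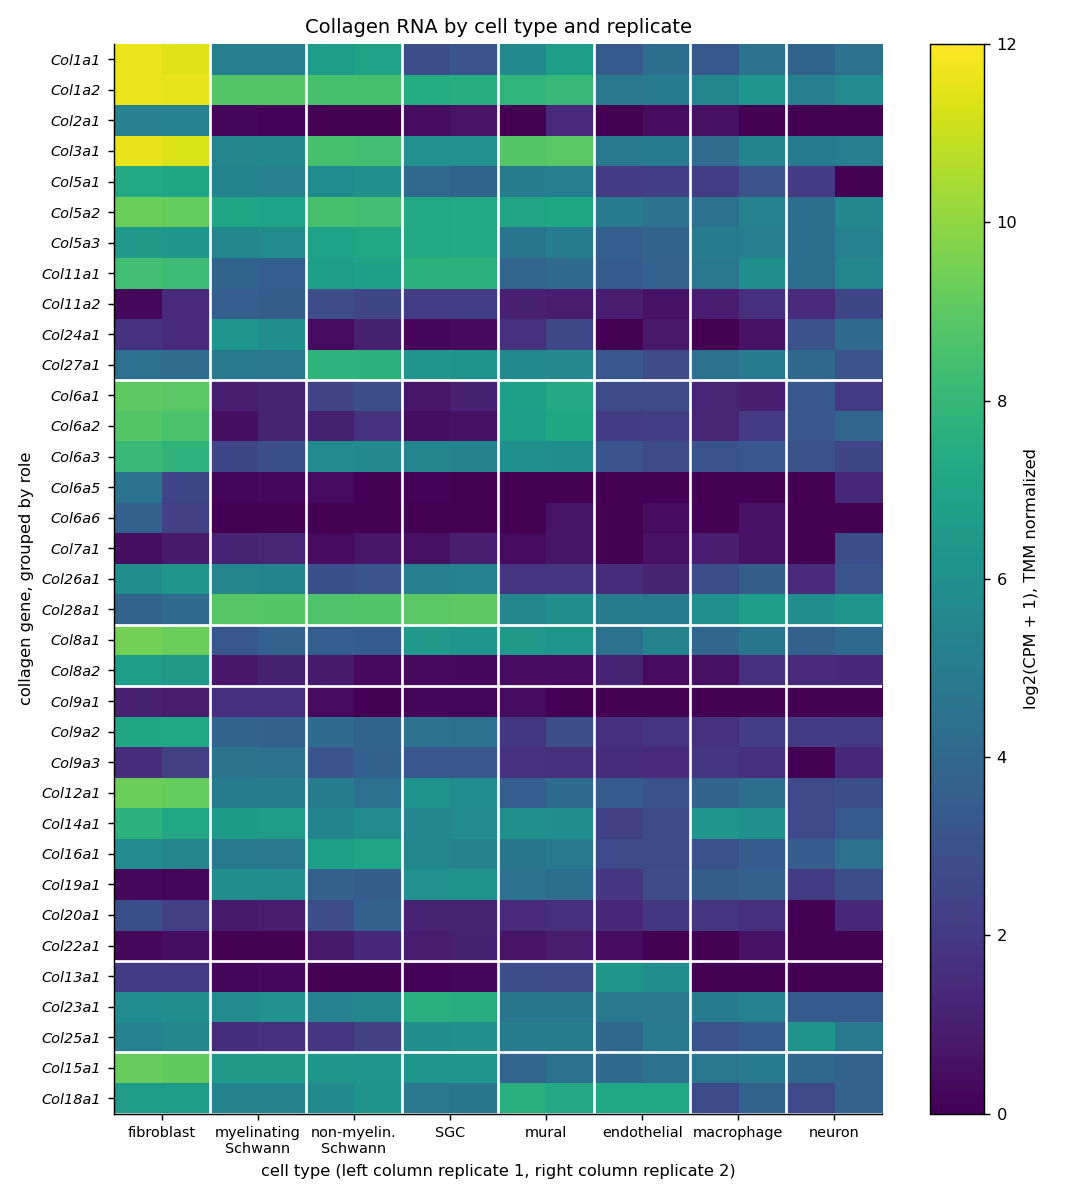
Levels of the collagen genes (one line each, grouped by role) in the 8 cell types, replicate 1 in the left and replicate 2 in the right column of each type, on a logarithmic colour scale of TMM-normalized CPM. The fibroblast columns are brightest for Col1a1, Col1a2, Col3a1 and the type VI, VIII and XII chains, and Col28a1 is bright in the SGC and Schwann columns and dark in fibroblasts.

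Of the 38 members, 35 had at least 10 UMIs in at least 2 of the summed profiles and entered the tests. Col6a4 (14 UMIs over the retained cells), Col10a1 (22) and Col17a1 (28) did not. Col6a5 and Col6a6 passed through fibroblasts alone and Col9a1 through myelinating Schwann cells alone, so that these had to differ. Col22a1 passed through SGCs alone, whose profiles held the most UMIs. Its mean level was 1.03 CPM there and 1.17 CPM in non-myelinating Schwann cells. Fibroblasts held the highest mean level for 19 of the 35, and in all of these both fibroblast values lay above both values of every other type, as held for 7.33% of all genes tested. SGCs were highest for 5 (Col5a3, Col19a1, Col23a1, Col25a1, Col28a1), myelinating Schwann cells for 4 (Col9a1, Col9a3, Col11a2, Col24a1), non-myelinating Schwann cells for 4 (Col16a1, Col20a1, Col22a1, Col27a1), and endothelial cells (Col13a1), mural cells (Col18a1) and neurons (Col7a1) for 1 each. The values of Col20a1, Col22a1, Col25a1 and Col7a1 overlapped with those of another type.

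Against the mean of the 7 other types on the log scale, 27 of the 35 tested members were higher in fibroblasts and 4 lower in edgeR's quasi-likelihood test at an adjusted p of 0.05. Over all 17555 genes tested, 27.3% were higher and 17.2% lower. The median log2 difference of the members was 3.20 (2.89 with groups at 0 UMIs set to a floor of 3 UMIs), and that of all genes 0.06. Without Col6a5 and Col6a6, 25 of 33 were higher. Every such p-value rests on 2 samples, which the paper calls biological replicates. The spread between them was estimated over all types of the fit together, with profiles of the same sample treated as independent.

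Among the fibrillar chains, 8 of 11 were higher in fibroblasts, 2 lower and 1 did not pass. Col1a1, the gene of the chain present in 2 copies in each type I molecule, stood at 3159 and 2783 CPM in fibroblasts, 94.4 and 120.5 in non-myelinating and 35.1 and 34.9 in myelinating Schwann cells, 51.3 and 106 in mural cells and 6.26 and 8.08 in SGCs. Its fibroblast level was 113 times the mean of the other types (log2 fold change 6.82 ± 0.15 (SE), edgeR adjusted p = 1.02e-17). In SGCs 2.71 and 3.77 CPM of it was estimated to be free RNA. Col1a2, the partner chain, stood at 3246 and 2963 CPM in fibroblasts and was also found at over 100 CPM in other cells, with 439 and 442 CPM in myelinating and 364 and 359 CPM in non-myelinating Schwann cells, 229 and 265 in mural cells and 171 and 176 in SGCs. Its fibroblast excess was 24.5-fold (log2 fold change 4.61 ± 0.10 (SE), edgeR adjusted p = 5.92e-18). Col3a1, whose product co-assembles with type I collagen in thin fibrils, stood at 3057 and 2641 CPM in fibroblasts, 448 and 481 in mural cells and 361 and 328 in non-myelinating Schwann cells, against 42.8 and 47.1 in myelinating Schwann cells and 65.9 and 66.4 in SGCs (log2 fold change 5.25 ± 0.10 (SE), edgeR adjusted p = 1.74e-18).

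The type V chains, which set the diameter of type I fibrils, were less skewed. Col5a1 was 158 and 132 CPM in fibroblasts, 56.4 and 63.2 in non-myelinating and 41.6 and 37.0 in myelinating Schwann cells and 16.0 and 13.5 in SGCs (log2 fold change 3.58 ± 0.12 (SE), edgeR adjusted p = 3.68e-15). Col5a2 was 632 and 581 CPM in fibroblasts and 362 and 327 CPM in non-myelinating Schwann cells, with 155 and 159 in SGCs, 136 and 125 in myelinating Schwann cells and 127 and 132 in mural cells (log2 fold change 2.89 ± 0.11 (SE), edgeR adjusted p = 2.16e-14). The third chain, Col5a3, which has been known from Schwann cells and other restricted sites, ran the other way: 158 and 161 CPM in SGCs and 122 and 146 in non-myelinating Schwann cells against 85.7 and 84.5 in fibroblasts. It was still called higher in fibroblasts against the mean of the other types (log2 fold change 0.95 ± 0.11 (SE), edgeR adjusted p = 4.46e-07), since the mean counts each type equally and the vascular cells, macrophages and neurons were low. When all other cells formed a single profile, which SGCs dominate by number, the difference turned to -0.52.

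Of the minor fibrillar chains, Col11a1, a chain of type XI collagen that nucleates fibrils, was shared between fibroblasts at 331 and 299 CPM, SGCs at 209 and 207 and non-myelinating Schwann cells at 103 and 117, with 13.6 and 11.1 in myelinating Schwann cells. Col2a1, best known as the main collagen of cartilage, was found almost wholly in fibroblasts (36.1 and 37.4 CPM) and stood at 1.82 CPM or less in every other profile. Col27a1, whose product forms thin fibrils, was highest in non-myelinating Schwann cells at 224 and 214 CPM and lower in fibroblasts (19.8 and 18.9 CPM, log2 fold change -0.78 ± 0.14 (SE), edgeR adjusted p = 9.08e-05). Col24a1, a fibrillar chain known from bone, was led by myelinating Schwann cells at 78.5 and 62.5 CPM and reached 2.43 and 1.68 CPM in fibroblasts, where it did not pass the test (edgeR adjusted p = 0.803). Col11a2 was low in all cells and highest in myelinating Schwann cells at 10.9 and 10.8 CPM.

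Of the 9 FACITs, 6 were higher in fibroblasts, 1 lower and 2 did not pass. Col12a1, which bridges fibrils under tension, stood at 635 and 572 CPM in fibroblasts, 67.4 and 56.0 in SGCs and 33.1 and 32.1 in myelinating Schwann cells (log2 fold change 5.09 ± 0.11 (SE), edgeR adjusted p = 4.71e-18). Col14a1, a related chain that regulates fibril growth, was broader, at 216 and 139 CPM in fibroblasts, 92.0 and 95.6 in myelinating Schwann cells and 75.3 and 63.8 in macrophages (log2 fold change 2.47 ± 0.13 (SE), edgeR adjusted p = 8.99e-12). Col9a2, a chain of the type IX collagen that coats type II fibrils, was 133 and 139.9 CPM in fibroblasts and 21.1 and 19.7 in SGCs, while its partner chains did not follow it: Col9a3 was 1.87 and 3.77 CPM in fibroblasts and 23.7 and 21.6 in myelinating Schwann cells, and Col9a1 was at or below 2.22 CPM in every profile. Col16a1, a FACIT of varied matrices, was led by non-myelinating Schwann cells at 110.3 and 127 CPM over fibroblasts at 54.2 and 42.8. Col19a1, a FACIT known from basement membrane zones and from neurons, was nearly absent from fibroblasts at 0.187 and 0.140 CPM (1 and 1 UMIs) and stood at 65.9 and 68.6 CPM in SGCs and 59.6 and 58.8 in myelinating Schwann cells.

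Among the 9 beaded filament and related chains, 6 of the 8 tested were higher in fibroblasts, 1 lower and 1 did not pass, and the type VI chains were steeply graded. Col6a1 stood at 526 and 483 CPM in fibroblasts and 113 and 149 in mural cells, and at 4.44 and 6.27 in non-myelinating Schwann cells, 1.03 and 1.25 in myelinating Schwann cells and 0.662 and 1.05 in SGCs (116-fold, log2 fold change 6.86 ± 0.10 (SE), edgeR adjusted p = 9.52e-20). Col6a2 followed the same order (458 and 384 CPM in fibroblasts, 107 and 134 in mural cells, 0.340 and 0.463 in SGCs, log2 fold change 6.90 ± 0.11 (SE), edgeR adjusted p = 2.07e-19). Col6a3, the third chain of the classical filament, departed from it in glia, with 54.2 and 49.1 CPM in non-myelinating Schwann cells and 43.5 and 40.8 in SGCs beside 273 and 220.4 in fibroblasts and 64.8 and 63.0 in mural cells (log2 fold change 3.96 ± 0.09 (SE), edgeR adjusted p = 1.79e-17). Col6a5 and Col6a6, which can stand in for that chain, were found in fibroblasts at 22.6 and 4.61 and 11.8 and 4.05 CPM, higher in replicate 1 than in replicate 2. Col26a1 stood at 62.9 and 81.7 CPM in fibroblasts and 42.4 and 42.2 CPM in myelinating Schwann cells. Col7a1, the anchoring fibril of skin, was at or below 1.44 CPM in every profile but that of the neurons of replicate 2 (6.27 CPM from 4 UMIs).

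Col28a1, a short beaded-filament collagen known from the basement membranes of Schwann cells, reversed this order. It stood at 486 and 519 CPM in SGCs, 477 and 454 in myelinating and 413 and 423 in non-myelinating Schwann cells, and at 12.9 and 17.2 CPM in fibroblasts (log2 fold change -3.17 ± 0.17 (SE), edgeR adjusted p = 8.73e-12). The lower glial level lay 27.4-fold above fibroblasts. Of the fibroblast level, 2.89 and 4.23 CPM was estimated to be free RNA. Mural cells (45.9 and 60.3 CPM), endothelial cells (32.7 and 29.8), macrophages (63.2 and 101) and neurons (58.6 and 79.9) lay between. The SGC marker Fabp7 was also found in these types. It stood at 496 and 888 CPM in mural cells, 544 and 597 in endothelial cells, 1517 and 2045 in macrophages and 1024 and 1867 in neurons. Whether RNA of glia has a part in their Col28a1 levels was not tested. Without cells that a doublet score marked, and on the same normalization factors, the mural level was 15.6 and 18.2 CPM and the endothelial level 9.59 and 6.90 CPM, while macrophages kept 25.5 and 68.9 CPM.

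Both tested network chains were higher in fibroblasts. Col8a1, known from vessel walls and the cornea, stood at 714 and 609 CPM in fibroblasts, 86.4 and 75.7 in mural cells and 85.8 and 76.3 in SGCs (log2 fold change 4.71 ± 0.11 (SE), edgeR adjusted p = 3.85e-17), and its partner Col8a2 at 104 and 89.0 CPM in fibroblasts and at most 2.04 CPM elsewhere. Of the multiplexins, which carry a C-terminal fragment with anti-angiogenic activity, Col15a1 was 596 and 529 CPM in fibroblasts and 74.4 to 90.1 CPM in SGCs and both Schwann types (log2 fold change 3.99 ± 0.08 (SE), edgeR adjusted p = 2.56e-18). Col18a1 was highest in mural cells (183 and 149.6 CPM) and endothelial cells (143 and 141 CPM), followed by fibroblasts (98.0 and 98.8 CPM). The transmembrane collagens peaked outside fibroblasts: Col23a1 in SGCs at 186 and 176 CPM against 55.6 and 61.8 CPM in fibroblasts, Col25a1 in SGCs at 57.7 and 63.6 CPM against 39.5 and 45.3 CPM, and Col13a1 in endothelial cells at 80.9 and 58.3 CPM against 3.37 and 3.07 CPM. All 3 were nonetheless called higher in fibroblasts than averaged over the remaining types (edgeR adjusted p = 2.53e-05, 9.23e-08 and 4.71e-05).

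Fibroblasts were next set against each Schwann type, the other cells of the nerve known to deposit collagen. Against myelinating Schwann cells 26 of 35 members were higher in fibroblasts and 6 lower, where 28.5% and 25.8% of all genes were. Against non-myelinating Schwann cells 24 were higher and 7 lower, where 23.1% and 18% of all genes were. Both counts of higher members include Col6a5 and Col6a6, which passed the count filter through fibroblasts alone and had to differ. The members' median log2 difference was 2.67 against myelinating and 2.26 against non-myelinating Schwann cells, beside -0.01 and 0.04 over all genes. Col1a1 was 84.8 times as high in fibroblasts as in myelinating (log2 fold change 6.41 ± 0.31 (SE), edgeR adjusted p = 1.01e-12) and 27.6 times as high as in non-myelinating Schwann cells (log2 fold change 4.78 ± 0.28 (SE), edgeR adjusted p = 4.61e-11), whereas Col1a2 was 7.04 and 8.60 times as high (log2 fold change 2.82 ± 0.17 (SE), edgeR adjusted p = 3.70e-11, and log2 fold change 3.10 ± 0.17 (SE), edgeR adjusted p = 1.99e-11). Col6a6, at 0 UMIs in both Schwann types, was at least 26.5-fold higher in fibroblasts than in myelinating and at least 10.7-fold higher than in non-myelinating Schwann cells, by a floor of 3 UMIs per profile. Col2a1 was at least 49.6-fold and Col13a1 at least 4.35-fold higher than in non-myelinating Schwann cells, where neither had a UMI.

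Col28a1 (log2 fold changes -4.93 and -4.78 against myelinating and non-myelinating Schwann cells), Col19a1 (1 and 1 UMIs in fibroblasts), Col27a1 (-0.48 and -3.50), Col11a2 and Col9a3 were lower in fibroblasts than in either Schwann type. Col24a1 was lower than in myelinating Schwann cells (log2 fold change -5.13 ± 0.28 (SE), edgeR adjusted p = 7.04e-12) but did not pass against non-myelinating ones (edgeR adjusted p = 0.133), and Col16a1 (log2 fold change -1.30 ± 0.12 (SE), edgeR adjusted p = 4.15e-08) and Col5a3 (log2 fold change -0.66 ± 0.13 (SE), edgeR adjusted p = 0.000412) were lower than in non-myelinating but not than in myelinating Schwann cells. Col5a3 was higher in fibroblasts than in myelinating Schwann cells (log2 fold change 0.79 ± 0.13 (SE), edgeR adjusted p = 5.05e-05), a call that was lost when clusters were named from 100 leading genes (adjusted p = 0.0807). Col9a1, at about 1 CPM in fibroblasts, was called higher than in non-myelinating Schwann cells, and not when the replicate was a block in the fit.

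The Schwann types differed from each other in which collagens they held. Myelinating cells were higher than non-myelinating cells for 8 of 35 members and lower for 13, where 17.3% and 16.8% of all genes were. The median difference of the members was 0.03 (-0.61 with the floor) and that of all genes 0.04. Among the fibrillar chains 2 were higher and 7 lower.

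Col24a1 separated the Schwann types most. It stood at 78.5 and 62.5 CPM in myelinating and 0.278 and 1.08 CPM in non-myelinating Schwann cells (1 and 5 UMIs), a 95.2-fold difference (log2 fold change 6.57 ± 0.37 (SE), edgeR adjusted p = 4.15e-11), and no other type exceeded 17.2 CPM. Col19a1 followed at 59.6 and 58.8 against 11.7 and 10.8 CPM (log2 fold change 2.40 ± 0.15 (SE), edgeR adjusted p = 1.27e-10), and Col26a1, a small collagen first known from testis and ovary, at 42.4 and 42.2 against 6.67 and 7.79 CPM (log2 fold change 2.54 ± 0.20 (SE), edgeR adjusted p = 4.28e-09). Col14a1 (0.96), Col9a3 (1.14), Col11a2 (1.01) and Col23a1 (0.55) were higher by smaller log2 differences, and Col9a1 at the edge of detection.

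Non-myelinating Schwann cells held more of the chains of classical fibrils. Col3a1 stood at 361 and 328 CPM in them and 42.8 and 47.1 CPM in myelinating cells (7.66-fold, log2 fold change -2.94 ± 0.18 (SE), edgeR adjusted p = 1.51e-10). Col1a1 (log2 fold change -1.62 ± 0.27 (SE), edgeR adjusted p = 8.64e-05), Col5a1 (log2 fold change -0.61 ± 0.14 (SE), edgeR adjusted p = 0.00231), Col5a2 (log2 fold change -1.40 ± 0.16 (SE), edgeR adjusted p = 9.06e-07) and Col5a3 (log2 fold change -1.45 ± 0.13 (SE), edgeR adjusted p = 4.66e-08) were lower in myelinating cells too. Col27a1 was 8.11-fold lower there (log2 fold change -3.02 ± 0.12 (SE), edgeR adjusted p = 5.97e-13), Col6a3 9.08-fold (log2 fold change -3.18 ± 0.17 (SE), edgeR adjusted p = 2.31e-11) and Col16a1 4.33-fold (log2 fold change -2.11 ± 0.12 (SE), edgeR adjusted p = 7.74e-11). Col22a1, a FACIT known from muscle junctions, had no UMI in myelinating cells and was at least 3.93-fold higher in non-myelinating cells. The summed fibroblast markers were also higher in non-myelinating cells, 1839 and 1833 against 582 and 667 CPM with all 12 markers counted. Of these, 9 had a UMI in both replicates of non-myelinating cells and 12 in those of myelinating cells. Single markers did not all follow the sum. Dcn was lower in non-myelinating cells at 18.89 and 48.02 against 31.53 and 61.85 CPM, and so was Lum at 7.22 and 13.84 against 13.97 and 19.17 CPM. Pdgfra stood at 0 and 1.298 against 0.719 and 0.867 CPM. Col6a1 and Col6a2 stood at 526 and 483 and 458 and 384 CPM in fibroblasts and at 4.44 and 6.27 and 1.11 and 2.38 CPM in non-myelinating cells. Col6a1 was called lower in myelinating than in non-myelinating cells, and Col6a2 was not called. Whether RNA of fibroblasts has a part in the collagen differences was not tested.

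Col11a1 was 8.96-fold lower in myelinating cells (13.6 and 11.1 against 103 and 117 CPM, log2 fold change -3.16 ± 0.23 (SE), edgeR adjusted p = 1.35e-09), and this difference depended on which cells were counted as myelinating. A cluster of 634 cells with Pou3f1 and Pde10a among its leading genes stayed unnamed. Its 50 leading genes held 2 myelinating markers and 1 SGC marker, Ednrb. Named from 100 leading genes, which held 4 myelinating and 2 SGC markers, it joined the myelinating type, and the difference became -0.20 (edgeR adjusted p = 0.496). At resolution 0.4, a cluster of 4076 cells led by Pou3f1, Ednrb and Pde10a was named SGC. Col1a2 (439 and 442 against 364 and 359 CPM, log2 fold change 0.29 ± 0.16 (SE), edgeR adjusted p = 0.195) and Col28a1 (477 and 454 against 413 and 423 CPM, log2 fold change 0.15 ± 0.15 (SE), edgeR adjusted p = 0.482) did not pass the test, with both Schwann types high in each.

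**Figure D2:**
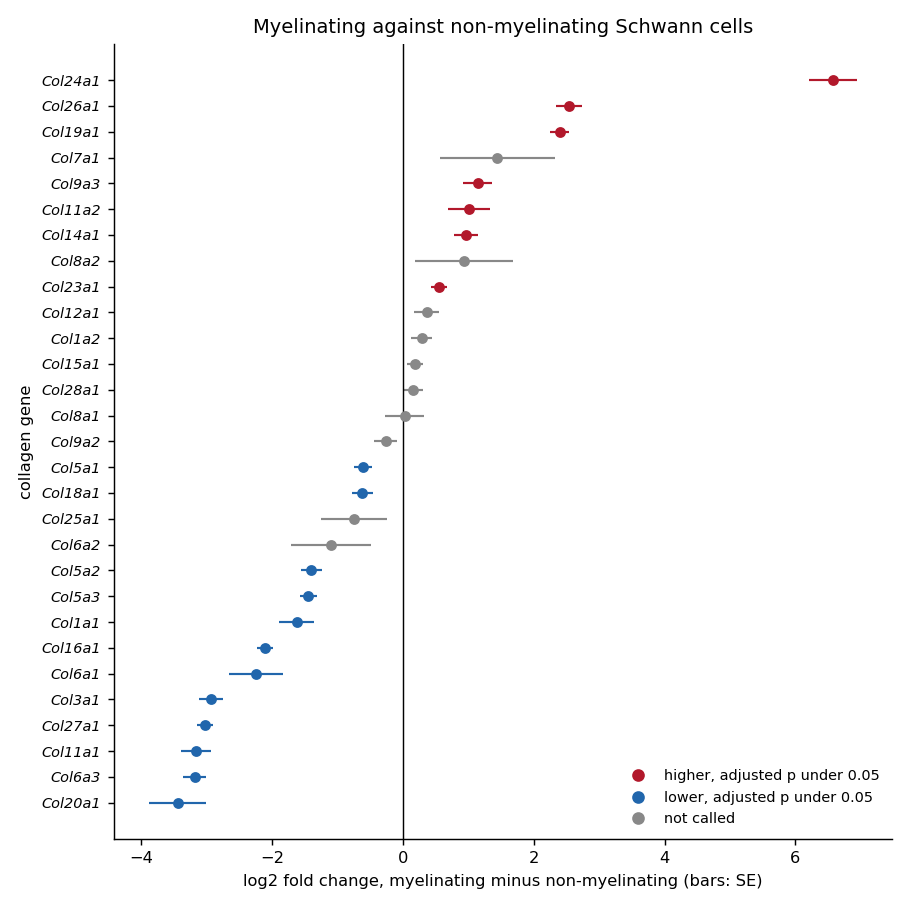
Log2 fold changes of 29 collagen genes between myelinating and non-myelinating Schwann cells (x axis, positive where myelinating cells were higher), with bars of 1 standard error. Points are red (higher) or blue (lower) for genes past an adjusted p of 0.05 and grey for genes not called. Col24a1 stands furthest right at 6.57, and Col6a3, Col11a1, Col27a1 and Col3a1 lie around -3. The 6 tested members left out had 3 UMIs or fewer in a type.

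SGCs, the glia of the neuronal cell bodies, were set against the mean of both Schwann types. Of the 35 members 12 were higher in SGCs and 15 lower, where 24.6% and 17.5% of all genes were. Col25a1, a transmembrane collagen known from neurons, stood at 57.7 and 63.6 CPM in SGCs and 1.95 and 2.22 and 2.78 and 4.11 CPM in myelinating and non-myelinating Schwann cells (22.3-fold, log2 fold change 4.48 ± 0.20 (SE), edgeR adjusted p = 1.19e-12). Col8a1 (85.8 and 76.3 CPM, log2 fold change 2.94 ± 0.17 (SE), edgeR adjusted p = 6.03e-11), Col11a1 (209 and 207 CPM, log2 fold change 2.50 ± 0.16 (SE), edgeR adjusted p = 1.95e-10) and Col23a1 (186 and 176 CPM, log2 fold change 1.85 ± 0.09 (SE), edgeR adjusted p = 5.17e-12) were higher in SGCs, and Col2a1 and Col22a1 were so from levels under 1.2 CPM. The mean level of Col22a1 was 1.03 CPM in SGCs and 1.17 CPM in non-myelinating Schwann cells. Myelinating Schwann cells had no UMI of it. Lower in SGCs were Col24a1 (at most 0.249 CPM), Col1a1 (log2 fold change -3.10 ± 0.26 (SE), edgeR adjusted p = 9.33e-09), Col5a1 (log2 fold change -1.72 ± 0.12 (SE), edgeR adjusted p = 5.67e-10), Col6a1 (log2 fold change -1.53 ± 0.29 (SE), edgeR adjusted p = 0.000281), Col6a2 (log2 fold change -1.60 ± 0.41 (SE), edgeR adjusted p = 0.00401) and Col1a2 (log2 fold change -1.20 ± 0.15 (SE), edgeR adjusted p = 1.68e-06). Col28a1 did not pass (log2 fold change 0.19 ± 0.13 (SE), edgeR adjusted p = 0.261).

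Against the mean of the other 7 types, 14 members were higher in myelinating Schwann cells (27.2% of all genes), 18 in non-myelinating Schwann cells (17.9%) and 18 in SGCs (32.1%). The leading members, with all groups above 3 UMIs where a log2 fold change is given, were Col11a2 (2.56), Col28a1 (2.47) and Col26a1 (2.31) in myelinating Schwann cells, Col27a1 (3.22), Col16a1 (2.61) and Col28a1 (2.29) in non-myelinating Schwann cells, and Col28a1 (2.59), Col23a1 (2.52) and Col11a1 (2.47) in SGCs. Col24a1, Col9a1, Col19a1 and Col9a3 in myelinating, Col22a1 and Col20a1 in non-myelinating Schwann cells and Col19a1 and Col22a1 in SGCs were called from contrasts in which another type held 3 UMIs or fewer. Col1a1 in myelinating Schwann cells did not pass (log2 fold change -0.50 ± 0.23 (SE), edgeR adjusted p = 0.0835) and was called lower with the replicate as a block.

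The chains of one molecule did not keep one ratio across cells. The UMI ratio of Col1a1 to Col1a2 was 0.973 and 0.939 in fibroblasts, 0.260 and 0.336 in non-myelinating Schwann cells, 0.224 and 0.401 in mural cells, 0.0800 and 0.0788 in myelinating Schwann cells and 0.0367 and 0.0458 in SGCs. Empty droplets gave 0.497 and 0.523, so the ratios of both Schwann types and SGCs lay below that of the free RNA, while the ratio of fibroblasts lay above it. With the estimated free RNA subtracted, the mean ratio was 0.0691 in myelinating Schwann cells and 0.0235 in SGCs. Such a ratio compares captured 3′ ends and gives no ratio of protein chains.

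**Figure D3:**
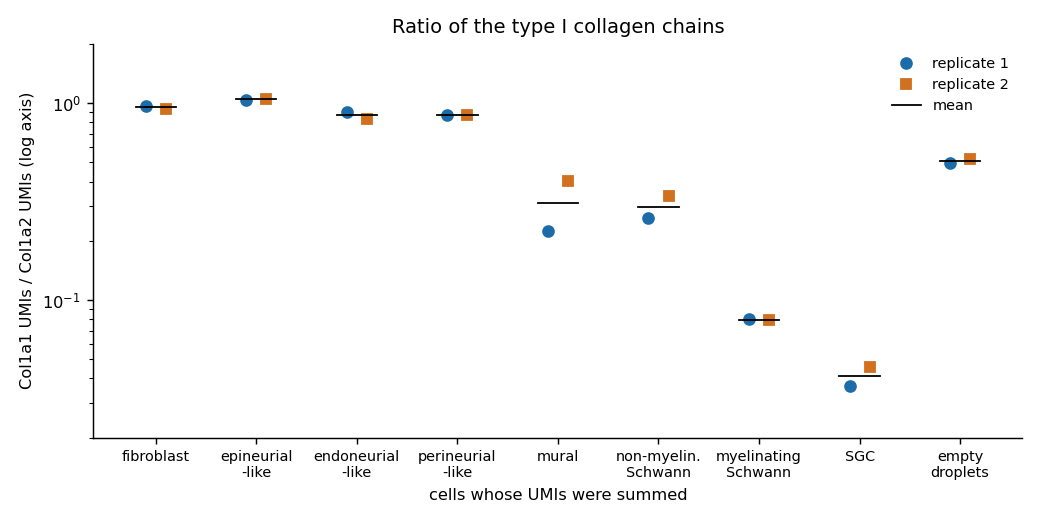
Ratio of Col1a1 to Col1a2 UMIs (log axis) in each type of cells and in empty droplets, with 1 point per replicate. The ratio lies near 1 in fibroblasts and their subtypes, near 0.5 in empty droplets, near 0.08 in myelinating Schwann cells and near 0.04 in SGCs.

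For type VI collagen, Col6a3 to Col6a1 was 0.518 and 0.456 in fibroblasts and 0.575 and 0.422 in mural cells, but 4.60 and 5.23 in myelinating Schwann cells, 12.2 and 7.83 in non-myelinating Schwann cells and 65.7 and 38.9 in SGCs, beside 1.5 and 1.33 in empty droplets. Glia thus held Col6a3 RNA with little of the other classical chains. In SGCs, 0.984 and 1.06 CPM of the Col6a3 level and 0.656 and 0.795 CPM of the Col6a1 level of 0.662 and 1.05 were estimated as free RNA. Col6a1 to Col6a2 was 1.15 and 1.26 in fibroblasts and 1.05 and 1.12 in mural cells. Col5a1 to Col5a2 was 0.250 and 0.227 in fibroblasts and 0.103 and 0.0850 in SGCs, beside 0.187 and 0.196 in empty droplets.

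Clustering the fibroblasts again, also without collagen genes, gave an endoneurial-like subtype (258 and 364 cells, named from Osr2, Abca9 and Ccl11) and an epineurial-like subtype (183 and 225 cells, from Pi16, Sfrp4, Clec3b and Comp). A perineurial-like cluster (55 and 107 cells, from Slc2a1, Cldn1, Itgb4, Lypd2 and Krt19) was kept apart from both. At a finer resolution, the epineurial-like cells split into a cluster led by Clec3b and Pi16 (112 and 105 cells) and a meningeal-like one (71 and 120 cells). Pdgfra stood at 325 and 305 CPM in endoneurial-like, 118 and 106 in epineurial-like and 69.6 and 82.5 in perineurial-like cells, and Dcn at 32032 and 29541, 6668 and 6437 and 16648 and 16496 CPM. Since clusters and tests come from the same cells, p-values between subtypes describe these clusters. Collagens made up 1.10% and 0.971% of endoneurial-like, 1.87% and 1.84% of epineurial-like and 0.384% and 0.364% of perineurial-like UMIs. The levels below are on the scale of the fit that holds the subtypes.

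Between endoneurial-like and epineurial-like cells, 11 of 35 members were higher in the endoneurial-like subtype and 14 lower, where 13% and 11.8% of the 17548 genes tested were. The median difference of the members was -0.33, and that of all genes 0.00. Col6a1, Col6a2, Col6a3 and both type VIII chains were higher in epineurial-like cells, and both multiplexins in endoneurial-like cells. Col6a5 and Col6a6 were also among the members lower in endoneurial-like cells. They passed the count filter through epineurial-like cells alone, so that they had to differ.

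Col12a1 stood furthest apart, at 16.0 and 8.46 CPM in endoneurial-like and 1254 and 1376 CPM in epineurial-like cells, 113-fold (log2 fold change -6.82 ± 0.23 (SE), edgeR adjusted p = 2.78e-15). Its relative Col14a1 stood at 16.7 and 19.2 against 416 and 309 CPM (19.9-fold, log2 fold change -4.32 ± 0.19 (SE), edgeR adjusted p = 8.34e-14). Both genes encode FACITs of the fibril surface, and neither pair of values overlapped. Within the epineurial-like cells, in CPM without TMM normalization, Col14a1 stood at 629 and 533 in the Clec3b and Pi16 cluster. It stood at 119 and 58.0 in the meningeal-like one. Col12a1 stood at 1070 and 1327 and at 1816 and 1693 in these clusters. Col8a2 (26.0 and 22.6 against 181 and 182 CPM, log2 fold change -2.92 ± 0.14 (SE), edgeR adjusted p = 3.30e-13) and Col8a1 (362 and 284 against 1048 and 1056 CPM, log2 fold change -1.71 ± 0.18 (SE), edgeR adjusted p = 9.91e-08) were lower in endoneurial-like cells too. By larger ratios than Col14a1 but from few UMIs, Col6a5 was 0 and 0.686 against 45.3 and 10.2 CPM and Col6a6 0.712 and 0.686 against 22.8 and 8.81 CPM. Of the classical type VI chains, Col6a1 was 325 and 289.7 against 711 and 743 CPM (log2 fold change -1.24 ± 0.13 (SE), edgeR adjusted p = 1.38e-07), Col6a2 231 and 192 against 675 and 648 (log2 fold change -1.65 ± 0.14 (SE), edgeR adjusted p = 2.26e-09) and Col6a3 143 and 117 against 395 and 362 (log2 fold change -1.55 ± 0.12 (SE), edgeR adjusted p = 4.60e-10).

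In the other direction, Col26a1 stood at 119 and 133 CPM in endoneurial-like and 1.12 and 1.36 CPM in epineurial-like cells (100.2-fold, log2 fold change 6.65 ± 0.28 (SE), edgeR adjusted p = 5.37e-14), and Col9a2 at 251 and 226 against 1.87 and 4.07 CPM (78.4-fold, log2 fold change 6.29 ± 0.23 (SE), edgeR adjusted p = 9.11e-15). Col2a1 stood at 68.7 and 59.2 against 0 and 3.05 CPM (log2 fold change 5.31 ± 0.51 (SE), edgeR adjusted p = 6.40e-08). The cartilage-type chains Col2a1 and Col9a2 were thus both in the endoneurial-like subtype, while the other type IX chains, Col9a1 and Col9a3, stayed at 6.17 CPM or less in either. Col15a1 was 989.7 and 772 against 152 and 140.0 CPM (6.04-fold, log2 fold change 2.59 ± 0.14 (SE), edgeR adjusted p = 2.49e-12) and Col18a1 147 and 147 against 41.2 and 22.4 CPM (log2 fold change 2.22 ± 0.21 (SE), edgeR adjusted p = 2.37e-08). Col28a1, low in fibroblasts as a whole, was 22.8 and 24.5 CPM in endoneurial-like and 1.87 and 5.42 CPM in epineurial-like cells (log2 fold change 2.67 ± 0.36 (SE), edgeR adjusted p = 3.46e-06), with 2.34 and 3.84 and 2.39 and 3.43 CPM estimated as free RNA. Col23a1 (2.58) and Col5a3 (0.65) were higher in endoneurial-like cells as well.

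The chains of the main fibrils differed by smaller folds between the subtypes. Col3a1 was 2043 and 1702 against 3970.4 and 3882 CPM (2.10-fold lower, log2 fold change -1.07 ± 0.17 (SE), edgeR adjusted p = 2.65e-05), Col5a1 128 and 103 against 181 and 168 CPM (log2 fold change -0.61 ± 0.14 (SE), edgeR adjusted p = 0.00170) and Col5a2 515 and 501 against 725 and 668 CPM (log2 fold change -0.46 ± 0.16 (SE), edgeR adjusted p = 0.0422). Col1a1, at 2589.6 and 2118 against 3599 and 3610.1 CPM, and Col1a2, at 2876 and 2541 against 3473 and 3421 CPM, did not pass the test (edgeR adjusted p = 0.0656 and 0.135). These chains, called or not, were unevenly spread over the epineurial-like cells. At a finer resolution, and in CPM without TMM normalization, the epineurial-like cluster led by Clec3b and Pi16 held Col3a1 at 5665 and 5803, Col5a1 at 248 and 245 and Col5a2 at 995 and 927 CPM, and the meningeal-like one, named from Igf2, Slc4a10 and Crabp2, held 1742 and 1949, 98.4 and 94.3 and 387 and 433 CPM. The 2 clusters of endoneurial-like cells each had 2 endoneurial markers among their leading genes at this resolution, fewer than the 3 needed for a name. They held Col3a1 at 1794 and 1436 and 2174 and 2111, Col5a1 at 104 and 88.9 and 147 and 123, and Col5a2 at 454 and 460.0 and 545 and 556 CPM. Col1a1 stood at 4568 and 4555 CPM in the Clec3b and Pi16 cluster and 2579 and 2968 CPM in the meningeal-like one. Col1a2 stood at 4686 and 4764 and at 1999 and 2198 CPM there. In the 2 clusters of endoneurial-like cells, Col1a1 stood at 2455 and 1903 and 2525 and 2424 CPM. Their Col1a2 levels were 2880 and 2471 and 2610 and 2570 CPM. No test was run between these clusters. Col6a6 was likewise at 38.3 and 15.8 CPM in the Clec3b and Pi16 cluster and 0 and 0.866 CPM in the meningeal-like cluster.

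**Figure D4:**
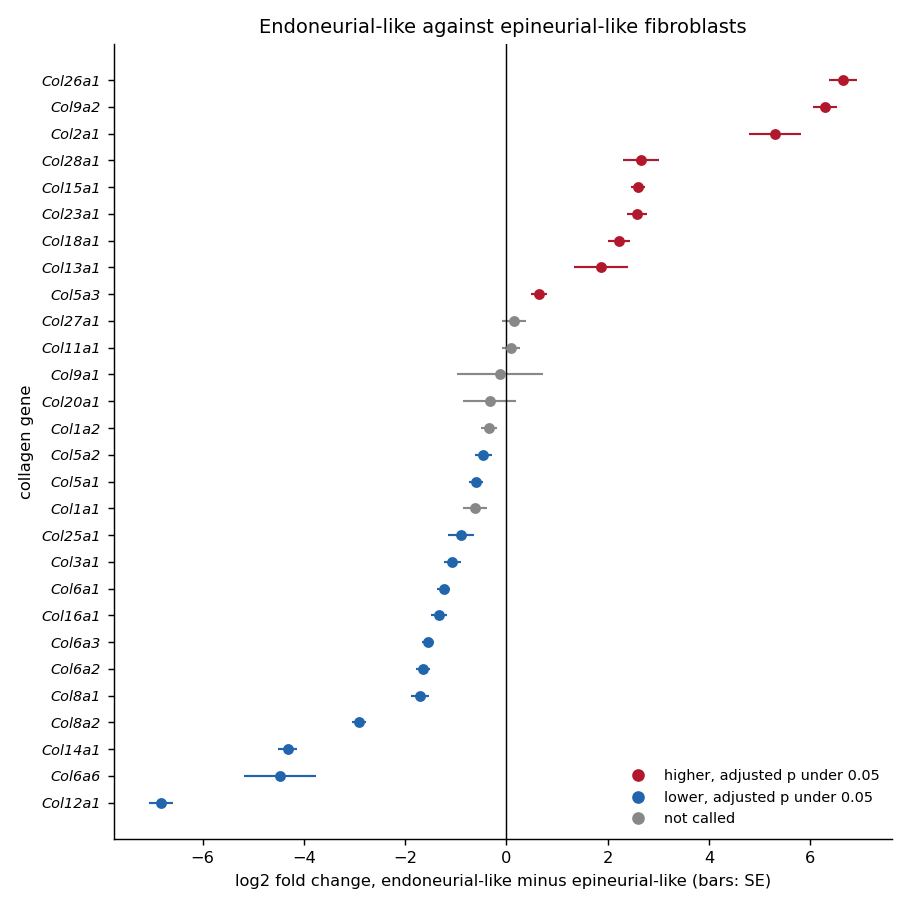
Log2 fold changes of 28 collagen genes between endoneurial-like and epineurial-like fibroblasts (x axis, positive where endoneurial-like cells were higher), with bars of 1 standard error. Points are red (higher) or blue (lower) for genes past an adjusted p of 0.05 and grey for genes not called. Col26a1 and Col9a2 lie at the right end and Col12a1 and Col14a1 at the left end, and the 7 tested members left out had 3 UMIs or fewer in a subtype.

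Perineurial-like cells were low in collagen against both fibroblast subtypes, though their collagen share of UMIs lay above that of every type other than fibroblasts. Against endoneurial-like cells 3 members were higher and 21 lower (8.47% and 10.9% of all genes), and against epineurial-like cells 5 were higher and 19 lower (8.27% and 9.69%). Medians were -1.27 and -1.88, beside -0.06 and -0.03 over all genes. Col1a1 stood at 793 and 703 CPM, Col1a2 at 907 and 806 and Col3a1 at 502 and 446 CPM, each below both fibroblast subtypes in each replicate. The deepest differences were Col15a1 against endoneurial-like cells (33.6 and 22.7 CPM in perineurial-like cells, log2 fold change -5.04 ± 0.19 (SE), edgeR adjusted p = 7.96e-14) and Col14a1 against epineurial-like cells (2.49 and 5.84 CPM, log2 fold change -6.27 ± 0.30 (SE), edgeR adjusted p = 6.26e-13). Col12a1, at 108 and 120.1 CPM, lay between the subtypes, above endoneurial-like (log2 fold change 3.31 ± 0.26 (SE), edgeR adjusted p = 3.08e-09) and below epineurial-like cells (log2 fold change -3.51 ± 0.20 (SE), edgeR adjusted p = 7.86e-12). Col8a2 (46.0 and 41.6 CPM) was higher than in endoneurial-like cells (log2 fold change 0.85 ± 0.20 (SE), edgeR adjusted p = 0.00368), and Col23a1 (31.1 and 53.3 CPM) higher than in epineurial-like cells (log2 fold change 1.57 ± 0.25 (SE), edgeR adjusted p = 5.71e-05). Col26a1, Col9a2 and Col13a1 were above epineurial-like cells from levels of 3.73 to 13.6 CPM. Col22a1 was called higher than in both subtypes from replicate 2 alone (0 and 9.74 CPM).

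**Figure D5:**
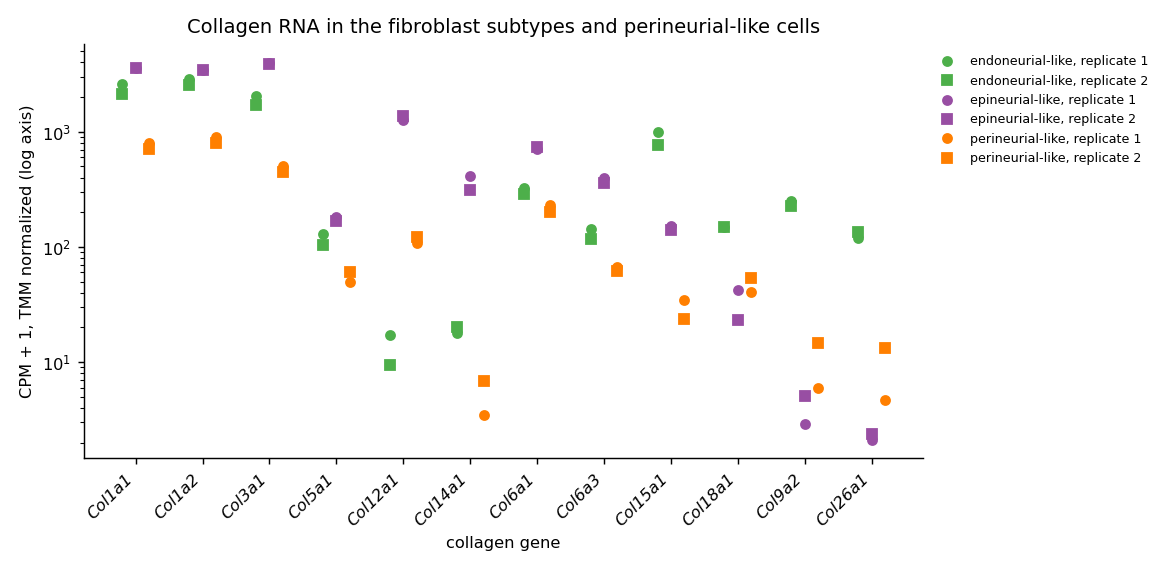
Levels of collagen genes (TMM-normalized CPM + 1, log axis) in endoneurial-like, epineurial-like and perineurial-like cells, with 1 point per replicate. Col12a1 and Col14a1 are low in the endoneurial-like and high in the epineurial-like subtype, Col15a1, Col9a2 and Col26a1 are the reverse, and perineurial-like points of Col1a1, Col1a2 and Col3a1 lie below both.

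Outside fibroblasts and glia, mural cells (pericytes and smooth muscle of vessel walls) held 14 members called higher than the mean of the other types (21.4% of all genes), led among those with every type above 3 UMIs by Col6a2 (4.83), Col6a1 (4.64), Col3a1 (2.26) and Col18a1 (2.22). Part of this came from 1 small cluster of 51 cells (7.37% of the mural cells), which has Acta2, Rgs5 and Mgp among its leading genes. It held 83.7% of the mural UMIs of Col14a1, 64.0% of Col1a1, 61.1% of Col8a1, 48.5% of Col3a1, 45.3% of Col6a1 and 11.2% of Col18a1. It had 2 fibroblast markers among its 50 leading genes, and 10 of the 12 fibroblast markers had a UMI in it. These summed to 9037 CPM against 2224 CPM in the other 641 mural cells, led by Mgp (4421 against 881 CPM), Igfbp4 (2619 against 308 CPM) and Mfap5 (585 against 6.08 CPM). Dcn was lower in it (121 against 249.6 CPM), Lum had 1 UMI, and Pdgfra and Pi16 had none, where the other mural cells had 17 and 3. Whether RNA of fibroblasts has a part in the mural collagen levels was not tested. Without the small cluster, which was a choice made after its collagen levels were seen, mural Col1a1 fell from 51.3 and 106 to 16.8 and 46.8 CPM and Col14a1 from 64.5 and 57.5 to 7.48 and 15.0 CPM. Their differences from the other types then turned from 0.83 to -0.48 (edgeR adjusted p = 0.207) and from 0.71 to -1.74 (edgeR adjusted p = 0.000123). Col6a1 kept 78.6 and 80.0 CPM, Col3a1 299 and 229 and Col18a1 186 and 141 CPM. Col5a2 in mural cells did not pass (log2 fold change 0.34 ± 0.14 (SE), edgeR adjusted p = 0.0544) and was called higher with the replicate as a block.

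Endothelial cells held 2 members called higher, Col13a1 and Col18a1 (25.9% of all genes were higher). Col13a1, a membrane collagen of cell contacts, stood at 80.9 and 58.3 CPM there, 6.28 and 5.75 in mural cells, 3.37 and 3.07 in fibroblasts and 0.193 CPM or less in the other 5 types. Col18a1, the source of endostatin, stood at 143 and 141 CPM (log2 fold change 1.96 ± 0.13 (SE), edgeR adjusted p = 1.27e-10). In macrophages 1 member, Col14a1, was higher (75.3 and 63.8 CPM, log2 fold change 0.93 ± 0.19 (SE), edgeR adjusted p = 0.000502), beside 22.8% of all genes, and it stood at 67.0 and 64.8 CPM without cells that a doublet score marked. Neurons held 2, Col25a1 (72.4 and 28.2 CPM, log2 fold change 1.80 ± 0.33 (SE), edgeR adjusted p = 0.000193) and Col24a1 (6.90 and 17.2 CPM), beside 18.6% of all genes. These neurons had a median of 849 UMIs, and 297 of the 435 held under 1000 UMIs. Upper cutoffs on UMIs and mitochondrial share also removed most cells of a deeply read neuron cluster of 116 cells. With those cells kept, neuronal Col25a1 was 45.8 and 52.9 CPM, Col24a1 6.55 and 5.11 CPM and Col7a1 0.131 and 8.04 CPM, and 4 members were called higher, with Col7a1 and Col10a1 added.

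Shares of cells with a UMI were compared after each cell was thinned to 1000 UMIs, with exact 95% binomial intervals that cover counting error only. Col1a1 was found in 82.4% (78.5 to 85.8%) and 81.1% (77.7 to 84.3%) of fibroblasts, 9.72% and 12.6% of non-myelinating and 3.35% and 3.53% of myelinating Schwann cells, and 0.749% and 0.770% of SGCs, against 98.4% and 98.8% of fibroblasts without thinning. Col28a1 was found in 32.3% (30.9 to 33.7%) and 34.9% (33.4 to 36.4%) of SGCs, 33.8% and 31.9% of myelinating and 32.1% and 35.5% of non-myelinating Schwann cells, and 0.686% and 0.519% of fibroblasts, so that it was spread over the glia rather than held by a few cells. Without thinning it was found in 94.6% and 95.6% of SGCs, at a median of 14302 UMIs a cell. Col24a1 was found in 6.69% (5.52 to 8.02%) and 5.36% (4.32 to 6.56%) of myelinating Schwann cells and in none of the 545 non-myelinating Schwann cells of replicate 1, where 3 counts of the total allow a share of cells with a UMI of up to 0.550%, and in 1 of 629 in replicate 2 (0.159%). Among subtypes, Col12a1 was in 58.1% (50.5 to 65.4%) and 56.5% (49.6 to 63.3%) of epineurial-like and 1.16% and 1.10% of endoneurial-like cells. Col15a1 was in 14% and 11.7% of epineurial-like and 59.7% (53.4 to 65.7%) and 48.6% (43.4 to 53.9%) of endoneurial-like cells. Col9a2 was in 21.3% and 17.3% of endoneurial-like and 0.559% and 0.467% of epineurial-like cells.

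Genes that act on collagen were taken from 5 lists of 70 genes. The CPM given here for the other types are arithmetic means over types. The log2 fold changes compare with their mean on the log scale, so the 2 need not match. In fibroblasts against the mean of the other types, 16 of 20 tested genes of folding and modification were higher and 2 lower, 11 of 12 of processing and crosslinking higher and 1 lower, 12 of 12 fibril-associated proteins higher, 5 of 12 collagen receptors higher and 5 lower, and 8 of 10 degradation genes higher and 1 lower, beside the 27.3% and 17.2% of all genes. Plod2, a lysyl hydroxylase of collagen telopeptides, stood at 308 and 264 CPM against 16.7 and 23.8 CPM in the mean of the other types (log2 fold change 4.03 ± 0.14 (SE), edgeR adjusted p = 5.38e-15), and Serpinh1, the collagen chaperone HSP47, at 938 and 935 CPM against 169 and 174 CPM (log2 fold change 2.84 ± 0.09 (SE), edgeR adjusted p = 2.01e-15). Adamts2, which removes the N-propeptide of fibrillar procollagens, stood at 262 and 244 CPM against 4.63 and 6.42 CPM (log2 fold change 6.61 ± 0.12 (SE), edgeR adjusted p = 7.41e-19), and Pcolce, which speeds removal of the C-propeptide, at 834 and 813 CPM against 26.2 and 29.1 CPM. The receptors moved in both directions, with Ddr2, a collagen-binding tyrosine kinase, at 238 and 184 CPM against 25.3 and 22.8 CPM and Lair1, an inhibitory receptor of leukocytes, at 0.561 and 0.140 CPM against 35.7 and 28.8 CPM.

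Between endoneurial-like and epineurial-like cells, 3 of 20 tested folding genes were higher and 7 lower, 1 of 12 processing and crosslinking genes higher and 8 lower, 2 of 12 fibril-associated genes higher and 9 lower, 2 of 12 receptors higher and 6 lower, and 1 of 10 degradation genes higher and 7 lower, beside 13% and 11.8% of all genes. Lox, the lysyl oxidase that starts crosslinking, stood at 6.41 and 3.43 CPM against 376 and 388 CPM (log2 fold change -6.37 ± 0.22 (SE), edgeR adjusted p = 3.12e-15), and Comp, a fibril-binding protein of tendon and cartilage and one of the markers that named the epineurial-like subtype, at 0.356 and 1.83 CPM against 718 and 749 CPM. Fmod (fibromodulin) stood at 0.356 and 1.60 CPM against 120.2 and 112 CPM (log2 fold change -6.69 ± 0.42 (SE), edgeR adjusted p = 4.68e-10) and Plod2 at 39.2 and 52.6 CPM against 576 and 562 CPM (log2 fold change -3.61 ± 0.21 (SE), edgeR adjusted p = 6.32e-12). Mmp2, a gelatinase, ran the other way at 445 and 471 CPM against 84.3 and 91.8 CPM (log2 fold change 2.38 ± 0.22 (SE), edgeR adjusted p = 1.77e-08), as did Colgalt2, which glycosylates hydroxylysine, at 47.0 and 55.3 CPM against 0.374 and 3.39 CPM.

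Between the Schwann types, 5 of 20 tested folding genes were higher in myelinating cells and 9 lower, 2 of 12 processing genes higher and 6 lower, 3 of 12 fibril-associated genes higher and 3 lower, 1 of 12 receptors higher and 7 lower, and 1 of 10 degradation genes higher and 5 lower, beside 17.3% and 16.8% of all genes. Ogn (osteoglycin), a small leucine-rich protein of fibrils, stood at 778 and 788 CPM against 23.1 and 21.6 CPM (log2 fold change 5.13 ± 0.20 (SE), edgeR adjusted p = 3.31e-13). Itga1 and Itga2, alpha chains of the collagen-binding integrins, were lower in myelinating cells at 20.2 and 17.8 CPM against 343 and 298 CPM (log2 fold change -4.07 ± 0.21 (SE), edgeR adjusted p = 9.36e-12) and 13.5 and 11.2 CPM against 127 and 109 CPM (log2 fold change -3.26 ± 0.18 (SE), edgeR adjusted p = 3.46e-11). The receptor Adgrg6, which type IV collagen can bind and which Schwann cells need for myelination, stood at 143 and 135 CPM against 353 and 369 CPM (log2 fold change -1.38 ± 0.13 (SE), edgeR adjusted p = 5.37e-08).

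Some members lie beside each other in the genome (GRCm38, GENCODE M21). Col3a1 (chr1:45311538-45349706, plus strand) and Col5a2 (chr1:45374321-45503282, minus strand) are 24.6 kb apart, and Col6a2 and Col6a1 lie on the minus strand of chromosome 10 with 85.2 kb between them. Over the 8 types, Pearson's r of log2(mean CPM + 1) was 0.86 for the first and 0.98 for the second pair, and 0.95 for Col6a6 and Col6a5 on chromosome 9 (27.9 kb). Col6a5 and Col6a6 passed the count filter through fibroblasts alone, so their r rests on 1 type. Col9a1 and Col19a1, 9.21 kb apart on chromosome 1, gave 0.12, and Col9a3 and Col20a1 (364 kb) 0.08. The types share libraries, so these values describe the levels and carry no test.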

How the data were processed

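The authors deposited raw UMI counts per gene and barcode for both samples, without selecting cells, made with Cell Ranger 7.1.0 per the file headers from reads aligned to mm10 per the labels. Cells were called here from totals and by a test against empty droplets (false discovery rate 0.01), clusters were formed with Seurat 5.3.0 and sctransform 0.4.2 (30 components, resolution 0.8) with 44 collagen genes kept out, and each cluster was named from its 50 leading genes where at least 3 fixed markers of a type were among them. Clusters with over 50% doublet-marked cells (315 cells), a mitochondrial cluster (279) and cells beyond upper cutoffs (275) were left out, as were unnamed cells. Doublets were marked by a score (thresholds 0.316 and 0.323) and removed only as such clusters, and all marked cells were left out as an alternative.

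Counts summed per replicate and type held 483125 to 61879499 UMIs. Genes reaching 10 counts in 2 or more profiles (17555 for types, 17548 for subtypes) were tested with edgeR 4.0.16 (TMM, quasi-likelihood, prior count 0.125, Benjamini-Hochberg over all genes of a comparison, R 4.3.3). On simulated counts with 200 genes changed 4-fold, 99.5% were recovered for fibroblasts against the other types, 99% for the Schwann types and 94.5% for the subtypes, with 7.44%, 6.6% and 3.57% of calls false. The changed genes were drawn from well-counted ones, all other genes had the same mean in every type, and profiles were independent. These rates thus do not cover members at few UMIs, the many genes that differ between types, or profiles paired by sample. Alternatives covered DESeq2 1.42.0 and its size factors, no filter, clustering, naming, removal of free RNA, equal cell numbers, other thinning depths and leaving out a replicate.

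Profiles with one replicate number come from one dissociation, so the number pairs them. The correlation of their deviations had a median of 0.055 (0.00809 to 0.195, 28 pairs of types) and 0.0429 (-0.0059 to 0.196, 45 pairs in the subtype fit).

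Members and lists were chosen with earlier results of these data known. Every member was accounted for. Named with values were the 5 largest log2 fold changes per direction and comparison among called members, and always the type I, III and V chains, Col6a1 to Col6a3, Col14a1, Col15a1, Col18a1 and Col28a1, and up to 4 called genes of each list.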

Additional observations from a re-analysis of the deposited data

Results flagged for a closer look

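Collagen RNA was also present in 3 clusters that carry no cell type name and entered no comparison, at levels above the limit that a count of 0 allows. Col1a2 stood at 431 and 424 CPM (mean 427 CPM) in a cluster of 317 and 317 cells that has Pou3f1 and Pde10a among its leading genes, where Col11a1 stood at 344 and 327 CPM. Col28a1 stood at 259 and 232 CPM (mean 246 CPM) in a cluster of 143 and 239 cells with Lyz2, Cd74 and Rgs5 among its leading genes, that is genes of leukocytes and of mural cells together. Col1a2 stood at 110.1 and 37.8 CPM (mean 73.9 CPM) in a cluster of 43 and 42 cells with Cd74, H2-Eb1 and Hbb-bs among its leading genes. All are CPM without TMM normalization.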

How the results depend on the processing

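Of 347 recomputed counts, shares and ratios, 324 stayed within 1.5 times the count reported or within the interval or replicate spread of the value, and of 3552 recomputed log2 fold changes of named members 3458 kept direction and side of the threshold, 86 lost the call and 8 changed sign. The cause of the changes was not tested unless stated. With all other cells in 1 profile, 8 members were lower in fibroblasts, and Col5a3 turned to -0.52. With the same number of cells per profile, which left 30 or 27 members tested and took 35 of the 86 lost calls, 4 members were higher in myelinating than non-myelinating Schwann cells, 5 lower in SGCs, 6 higher in endoneurial-like cells and 1 higher in perineurial-like than endoneurial-like cells, and Col8a2 in SGCs against Schwann cells turned to 0.11. With free RNA subtracted, 2 members were higher in macrophages, Col6a2 in endothelial cells turned to 0.18, and mean ratios were 0.0691 (Col1a1 to Col1a2, myelinating Schwann cells), 0.0235 (SGCs) and 5.04 (Col6a1 to Col6a2, non-myelinating Schwann cells). In neurons, 4 members were higher with DESeq2 and 4 without upper cutoffs, and Col28a1 turned to 0.19 with log normalization before clustering. Named from 100 leading genes, Col11a1 in myelinating Schwann cells against other types turned to 0.77. Without the small mural cluster, chosen after seeing the data, Col1a1 and Col14a1 in mural cells turned to -0.48 and -1.74, and the adjusted p of mural Col1a2 rose to 0.295 and that of macrophage Col28a1 to 0.0614.

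Leaving out a replicate leaves 1 profile per type and no residual degrees of freedom, so these are values with no test. Only Col22a1 in perineurial-like against endoneurial-like cells changed sign among the named fold changes, from 3.80 without replicate 1 to -4.66 without replicate 2. With the replicate as a block, 522 of 525 calls were the same, and the exceptions were Col1a1 in myelinating Schwann cells (lower), Col5a2 in mural cells (higher) and Col9a1 in fibroblasts against non-myelinating Schwann cells (not called).

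Depth set the shares of cells. At 500 and 2000 UMIs per cell, mean shares were 66.8 and 93.2% for Col1a1 in fibroblasts, 1.84 and 6.12% in myelinating Schwann cells, 19.2 and 55.2% for Col28a1 in SGCs, 3.19 and 10.5% for Col24a1 in myelinating Schwann cells, 34.1 and 70.5% for Col15a1 in endoneurial-like cells, and 40.0 and 69.9% for Col12a1 in epineurial-like cells.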

Other observations

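Finer clusters, again formed without collagen genes, showed variation inside the types. These are levels in CPM without TMM normalization, and no test was run. The epineurial-like fibroblasts split at a finer resolution into a cluster led by Clec3b and Pi16 (112 and 105 cells) and a meningeal-like one, named from Igf2, Slc4a10 and Crabp2 (71 and 120 cells). Col14a1 stood at 629 and 533 CPM in the first and 119 and 58.0 CPM in the second, and Col15a1 at 216 and 199.9 against 67.4 and 83.1 CPM. Col25a1 ran the other way, at 0 and 1.26 against 124 and 177 CPM. Col12a1 stood at 1070.1 and 1327 CPM in the first and 1816 and 1693 CPM in the second.

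Among the 2 largest clusters of SGCs, the one led by Ednrb and Grik2 held Col11a1 at 283 and 278 CPM and Col6a3 at 70.4 and 70.5 CPM, and the one led by Hes5 and Acsbg1 held Col11a1 at 118 and 133 CPM and Col6a3 at 12.9 and 13.4 CPM. Col25a1 was reversed, at 14.3 and 23.4 against 78.3 and 82.6 CPM. Of the 2 clusters of myelinating Schwann cells, the larger held Col28a1 at 534 and 485 CPM and Col24a1 at 63.5 and 52.5 CPM, and the smaller held Col28a1 at 297 and 287 CPM and Col24a1 at 102 and 84.3 CPM. In endothelial cells, Col13a1 stood at 91.1 and 62.9 CPM in the main cluster and 19.9 and 26.0 CPM in the small one that has Ccl21a among its leading genes, and Col15a1 at 9.18 and 12.8 against 85.3 and 107 CPM.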
